A study of Arabidopsis thaliana with 6 samples.

Results

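ARR15 (AT1G74890) and RR16 (AT2G40670, also called ARR16) are 2 of the 10 type-A response regulator genes of Arabidopsis thaliana, and they were the 2 that could be matched to a probe set carrying a single gene. They were followed by probe set 262212_at for ARR15 and 266078_at for RR16, among 22746 probe sets tested and 13286 genes named from them. The other type-A genes were not analysed here. The arrays compared whole seedlings, shoot and root together, that were 7 days old, had 2 days of seed vernalization and grew on full-strength MS medium. Empty-vector plants carrying pCAMBIA 1302 gave 3 arrays and transgenic 35S-PaWRKY1 plants gave the other 3. The 35S promoter of cauliflower mosaic virus drives strong expression in most plant tissues, and PaWRKY1 is named as a WRKY transcription factor. The labels call the arrays of a group biological replicates but do not say whether they came from separate transgenic lines or sowings.

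Cytokinin is sensed in Arabidopsis by membrane histidine kinases. These pass a phosphate through shuttle proteins to the type-B response regulators, which are DNA-binding transcription factors. Type-A response regulators are rapid transcriptional targets of the type-B proteins, hold a receiver domain without a DNA-binding output domain, and feed back to dampen cytokinin signalling, so that their transcripts are widely used as a readout of the pathway. ARR15 is also known in the shoot meristem as a gene repressed by the homeodomain protein WUSCHEL. RR16 is also known in the stomatal lineage of young leaves.

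Every deposited value is a difference, taken here to be in log2 units, from the mean of the 3 control arrays of the same probe set, so the control mean is 0 for both genes and expression levels cannot be compared between genes. Neither the log base nor the direction is given in the sources used here, and a higher value is taken by convention as more transcript. Both genes were chosen by their measured values in the comparison of 35S-PaWRKY1 with empty vector and by how these varied over the 6 arrays, so these values are a description and carry no test.

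ARR15 was at -0.73, -0.39 and 1.12 on control arrays 1, 2 and 3, and at -1.15, -0.89 and -1.44 on 35S-PaWRKY1 arrays 1, 2 and 3. All 3 transgenic arrays lay below all 3 controls, but control array 1 stood close to them and control array 3 stood alone at the top. The highest transgenic array and the lowest control array were 0.158 apart, whereas the controls spanned 1.85. The mean of the transgenic arrays was -1.16 (SD 0.273, n = 3) against a control SD of 0.985 (n = 3). The difference, 35S-PaWRKY1 minus empty vector, was therefore -1.16 (SE 0.456), which would be 2.23-fold lower if the base is 2.

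RR16 was at -0.40, 0.40 and 0.00 on control arrays 1, 2 and 3 and at -1.02, -1.47 and -0.96 on 35S-PaWRKY1 arrays 1, 2 and 3. The groups did not overlap here either, and the space between them was wider. The lowest control and the highest transgenic array were 0.555 apart, against a span of 0.806 among controls and 0.512 among transgenic arrays. The mean of the transgenic arrays was -1.15 (SD 0.278, n = 3), with a control SD of 0.403 (n = 3). The difference was -1.15 (SE 0.228), or 2.22-fold lower if the base is 2.

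**Figure D1:**
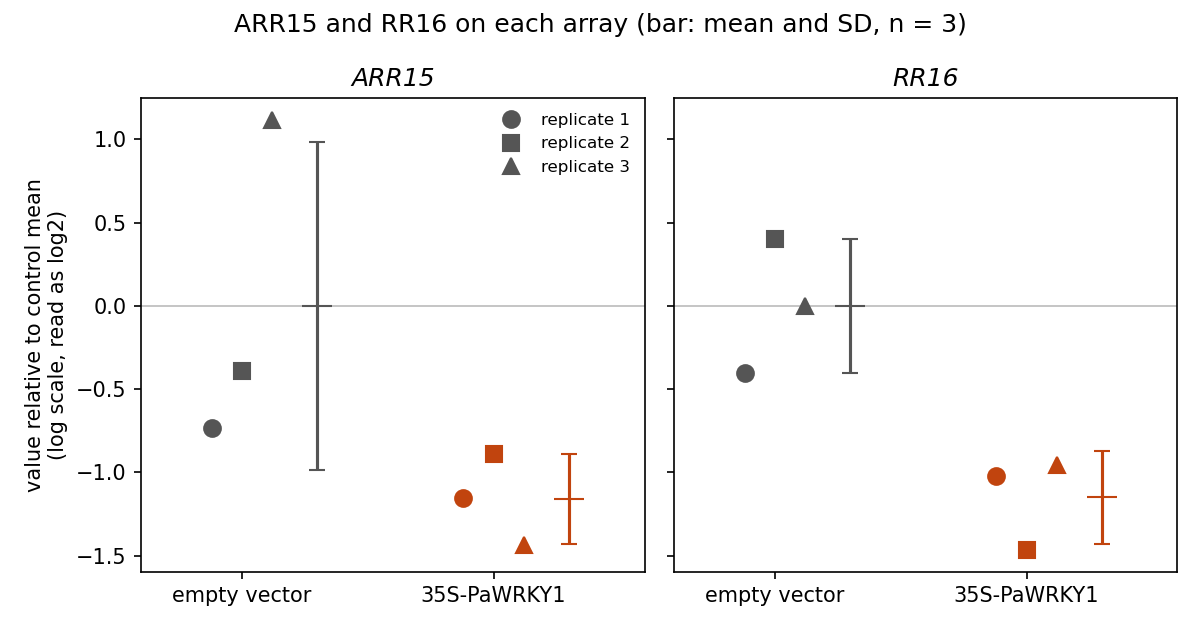
Values of ARR15 (left) and RR16 (right) on each array, as differences from the control mean on a log scale read as log2; symbols mark the replicate number, and bars the mean and SD of 3 arrays. The transgenic arrays sit between -1.44 and -0.89 for ARR15 and between -1.47 and -0.96 for RR16, and control replicate 3 lifts the control SD of ARR15 to 0.985.

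Over the whole array, the groups lay apart with 35S-PaWRKY1 lower for 9.17% of the 22746 probe sets, and apart in either direction for 14.5%, so groups that do not overlap are common in these data. A difference of -1 or lower was found for 15 probe sets, or 0.0659%, and ARR15 and RR16 were the 10th and the 12th lowest of all. These ranks are part of what brought the 2 genes to attention. The median difference over all probe sets was -0.04, and the median SE was 0.118. In whole seedlings, fewer cells that express a gene and less transcript per cell cannot be told apart.

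The nearly equal mean differences came from different arrays. For ARR15, control replicate 3 carried much of it. That array's value of 1.12 was the 43rd highest of all probe sets on the array, whereas control replicate 1, at -0.73, was the 29th lowest on its own. The median of the 3 arrays per group, which gives the extreme array less weight, put ARR15 at -0.39 in controls and -1.15 in 35S-PaWRKY1, a difference of -0.77. Without control replicate 3 the difference of ARR15 was -0.60, and without both replicate 3 arrays it was -0.46.

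For RR16, the range over single arrays left out was narrower. Its group medians were 0.00 in controls and -1.02 in 35S-PaWRKY1, a difference of -1.02. Leaving out single arrays moved its difference between -1.35 and -0.95, against -1.53 to -0.60 for ARR15. On the array of 35S-PaWRKY1 replicate 2, RR16 was the 9th lowest probe set of all, and on that of replicate 3 ARR15 was the 6th lowest. Each of these arrays was the lowest for its gene.

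**Figure D2:**
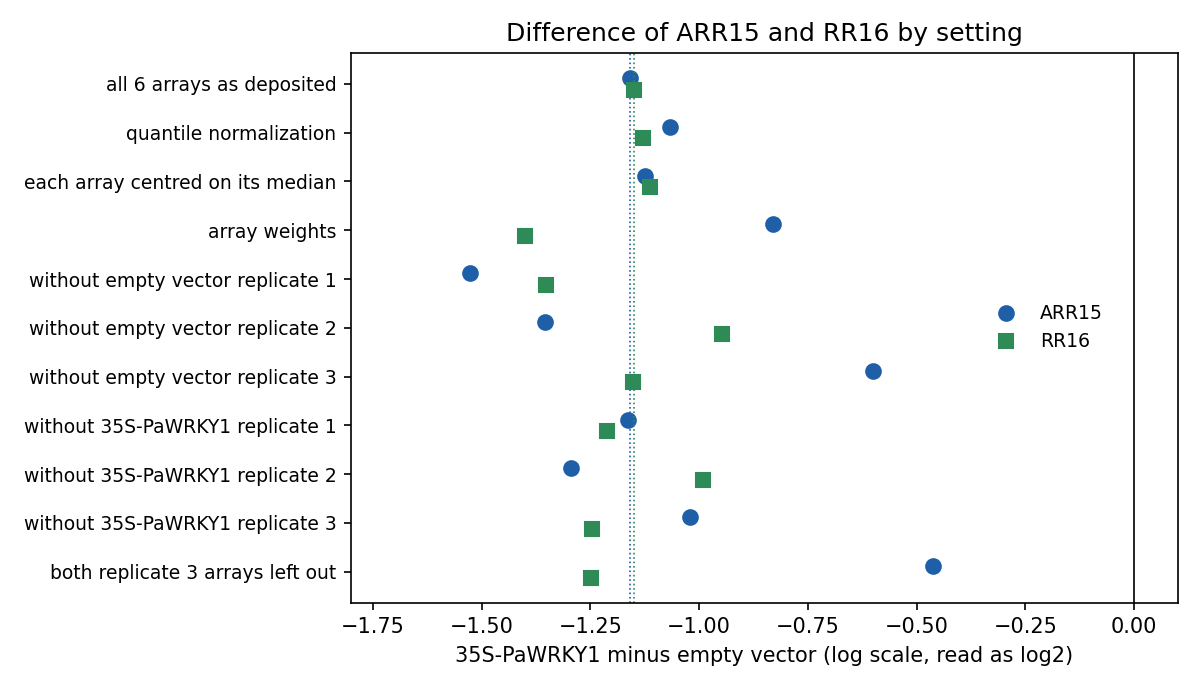
Difference of ARR15 (circles) and RR16 (squares), 35S-PaWRKY1 minus empty vector on a log scale read as log2, with all 6 arrays, after other ways of scaling or weighting arrays, and with arrays left out; dotted lines mark the values with all 6. Since the groups do not overlap, leaving out arrays cannot turn the sign; ARR15 moves from -1.16 to -0.60 without control replicate 3 and to -0.46 without both replicate 3 arrays.

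Arrays of the same replicate number in the 2 groups can also be set side by side. For ARR15, 35S-PaWRKY1 minus empty vector was -0.42 for replicate 1, -0.50 for replicate 2 and -2.56 for replicate 3. For RR16 the same 3 differences were -0.62, -1.87 and -0.95. Since the groups do not overlap, every such difference is below 0 whichever arrays are paired. The widest gap fell at replicate 3 for ARR15 and at replicate 2 for RR16.

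The control arrays were spread widely for ARR15. A share of 0.607% of probe sets had a larger control SD than ARR15, which ranked 139th, and 7.00% had a larger one than RR16. Among the 35S-PaWRKY1 arrays the spreads of the 2 genes were alike, and 12.7% and 12.2% of probe sets had a larger SD. The median SD of a probe set was 0.148 over controls and 0.118 over 35S-PaWRKY1 arrays. In a fit that weights arrays by their agreement, the difference of ARR15 was -0.83 and that of RR16 was -1.40.

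Over the 6 arrays the 2 genes varied together mainly through the step between the groups. Pearson's r between ARR15 and RR16 was 0.628 and Spearman's rho 0.714 (n = 6 arrays), given as a description because the choice of genes used it. After each group's mean was taken off, r was -0.00453, which pools 2 groups of 3 arrays in which the genes did not vary alike and so does not show that joint variation was absent. Leaving out the 2 arrays farthest from the ARR15 median, replicate 3 of each group, gave an r of 0.841 over 4 arrays. Single arrays left out gave 0.587 to 0.767. All of these values keep the step between the groups, so they do not show that the genes varied together within groups.

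The arrays that were high or low differed between the genes within each group. Among controls, ARR15 was highest on replicate 3, where RR16 was at 0.00, and RR16 was highest on replicate 2, where ARR15 was at -0.39. Both were lowest among controls on replicate 1. Among 35S-PaWRKY1 arrays, the array with the lowest RR16, replicate 2, was the one with the highest ARR15, and the array with the lowest ARR15, replicate 3, was the one with the highest RR16.

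**Figure D3:**
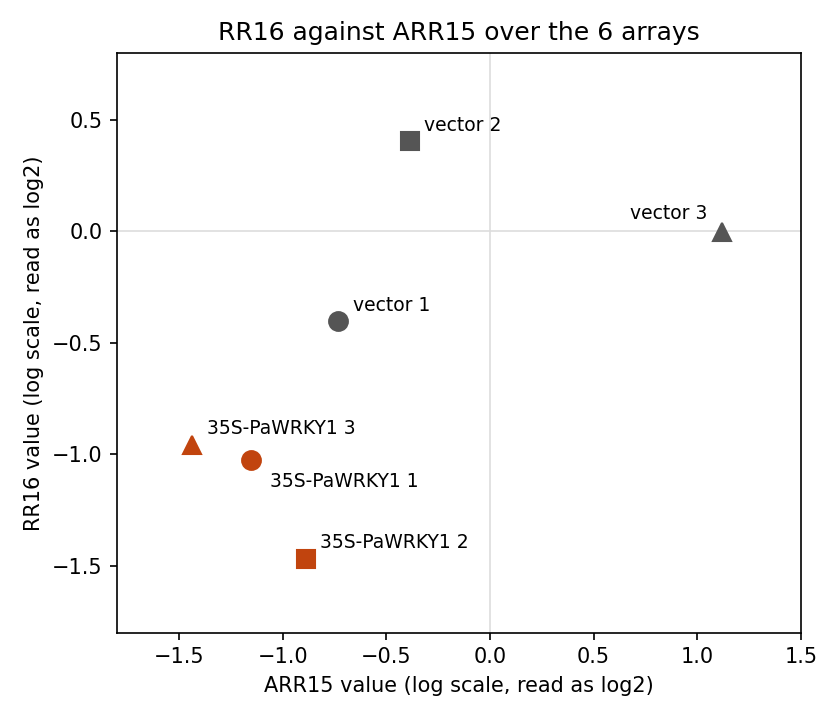
RR16 against ARR15 on each of the 6 arrays, both as differences from the control mean on a log scale read as log2. The 3 transgenic arrays fall in the lower left and the 3 vector arrays above them, with a Pearson r of 0.628 over all arrays and -0.00453 after each group's mean is taken off.

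Of 78 other genes listed for the cytokinin pathway, 5 were matched to a single-gene probe set: 2 of 11 type-B regulators, 1 of 2 type-C regulators and 2 of 6 transport and conjugation genes. None of the listed receptors, phosphotransfer proteins, response factors, oxidases, synthesis enzymes, F-box proteins of type-B turnover or cytokinin-induced genes was matched, so these steps were not analysed here. Of the 5, limma called 0 higher and 0 lower at an adjusted p under 0.05, where 0.0308% of all probe sets were called, and 0 had an unadjusted p under 0.05, where 8.01% of all did. In the values as deposited all 5 lay below control, with a median of -0.11, where 60.5% of all probe sets lay below control with a median of -0.04. After quantile normalization or median centring of each array, UGT76C1 lay slightly above control, at 0.0018 and 0.021, and the others stayed below. For 0 of the 5 did the groups lie apart, where they did so for 14.5% of all probe sets.

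UGT76C2, a glucosyltransferase that inactivates cytokinins by N-glucosylation, had the largest difference of the 5. It was at -0.25, 0.05 and 0.20 on control arrays 1 to 3 and at -0.04, -0.87 and -0.46 on 35S-PaWRKY1 arrays 1 to 3. Transgenic replicate 1 lay inside the control range, and transgenic replicate 2, where RR16 was also at its lowest, was the lowest array. The difference was -0.46 (SE 0.222, n = 3 per group, limma adjusted p 0.66). It ran from -0.67 without 35S-PaWRKY1 replicate 1 to -0.25 without 35S-PaWRKY1 replicate 2, and its adjusted p with the replicate number as a block was 0.524.

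UGT76C1, the neighbouring enzyme of the same activity, was at -0.01, 0.13 and -0.12 in controls and at 0.21, 0.01 and -0.26 in 35S-PaWRKY1. The groups overlapped, though 35S-PaWRKY1 replicate 1 lay above the control range and replicate 3 below it. The difference was -0.01 (SE 0.139, n = 3 per group, limma adjusted p 0.989). With single arrays left out it ran from -0.13 to 0.11, so it had no settled sign.

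The type-B regulators RR18 and RR19 belong to the class that activates type-A genes. RR18 was at -0.06, 0.22 and -0.16 in controls and at -0.20, -0.14 and -0.11 in 35S-PaWRKY1, a difference of -0.15 (SE 0.116, n = 3 per group, limma adjusted p 0.80) that ran from -0.23 to -0.04 with single arrays left out, the last without control replicate 2. RR19 was at -0.02, 0.04 and -0.03 in controls and at -0.11, -0.08 and 0.00 in 35S-PaWRKY1, a difference of -0.06 (SE 0.0801, n = 3 per group, limma adjusted p 0.879) that ran from -0.10 to -0.04. For both genes at least 1 transgenic array lay within the control range.

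RR22, a type-C regulator known mainly from reproductive tissue and not induced by cytokinin, was at -0.10, 0.08 and 0.02 in controls and at 0.04, -0.13 and -0.24 in 35S-PaWRKY1. The groups overlapped, and its difference was -0.11 (SE 0.105, n = 3 per group, limma adjusted p 0.842), running from -0.18 to -0.04 with single arrays left out. RR23, another gene named as a response regulator, was not on the list and was added after the annotation was seen. Its difference was -0.02 (SE 0.075, n = 3 per group, limma adjusted p 0.978). Against these 6 genes, which ranged from -0.46 to -0.01, ARR15 and RR16 stood at -1.16 and -1.15, values they were chosen for.

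**Figure D4:**
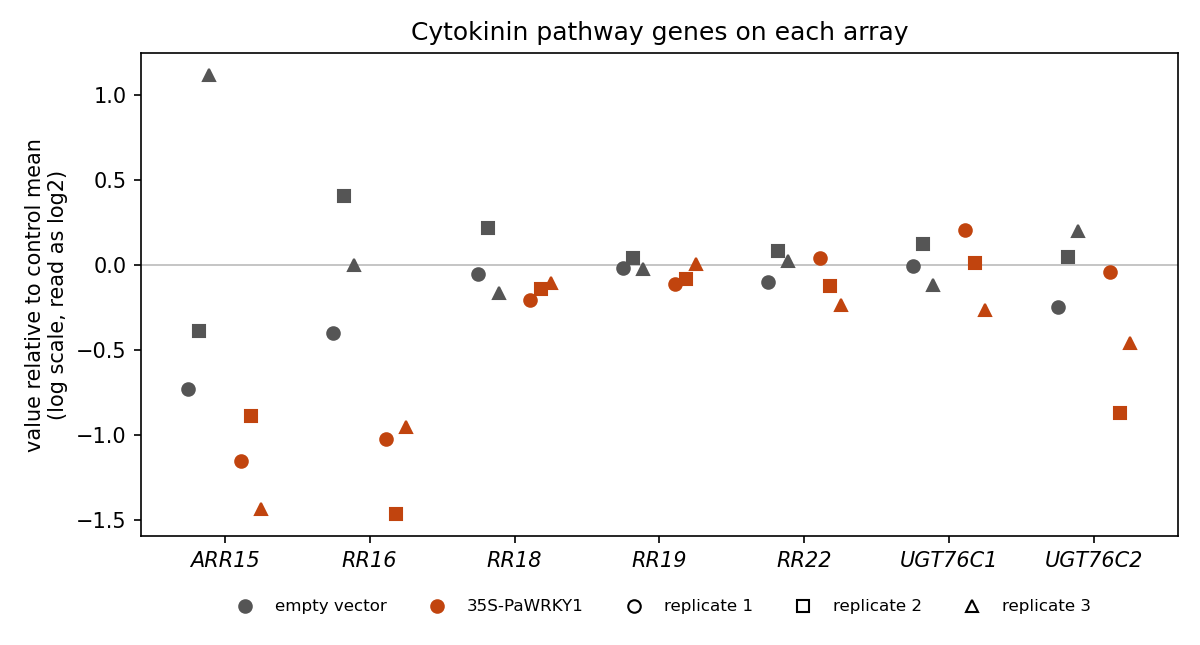
Values of ARR15, RR16 and the 5 other matched cytokinin pathway genes on each array, as differences from the control mean on a log scale read as log2, with grey for empty vector, orange for 35S-PaWRKY1 and symbols for the replicate number. The groups lie apart for ARR15 and RR16 and overlap for the other 5, and UGT76C2 on transgenic replicate 2 reaches -0.87.

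The genes next to the 2 regulators on the chromosome, by the order of the RefSeq table, had mean differences from -0.12 to 0.02. OTP43, a mitochondrial splicing factor gene directly after ARR15, was at -0.06 (SE 0.104, n = 3 per group, limma adjusted p 0.911). AT1G74870, the nearest measured gene before ARR15 with 2 genes between, was at -0.01 (SE 0.0769, limma adjusted p 0.993). AT2G40660 and AT2G40680, directly before and after RR16, were at 0.02 (SE 0.0948, limma adjusted p 0.981) and -0.12 (SE 0.127, limma adjusted p 0.852). With single arrays left out AT2G40680 stayed below 0, from -0.24 to -0.04, and its median difference was -0.25. The other neighbours changed sign when single arrays were left out. The groups overlapped for these 4 genes.

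Among 183 single-gene probe sets with a gene name and a range over the arrays of at least 1, the patterns most like each regulator were sought by Pearson's r over the 6 arrays. These are descriptions of likeness over few arrays, which share the group step and the same hybridisations. A gene chosen this way tends to share the group step and the extreme arrays of its regulator, so these features are no separate result. The highest r with ARR15 were those of TBL45 (0.915), BAT1 (0.909), GLC (0.907), BZIP61 (0.906) and JKD (0.884). The highest with RR16 were those of CSLC04 (0.920), SCPL34 (0.901), TBL45 (0.851), UGT76C2 (0.795) and OCT5 (0.775). RR16 itself, at 0.628, was exceeded by 16 of the 183 in likeness to ARR15, and ARR15 by 8 of the 183 in likeness to RR16.

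All 5 genes nearest to ARR15 were, like ARR15, highest on control replicate 3. BZIP61, a bZIP transcription factor gene, was at 1.07 on that array and between -0.65 and -0.37 on the other 5. BAT1, an acyltransferase gene of brassinosteroid metabolism, was at 0.72 there and between -0.46 and -0.31 elsewhere. GLC, also called GLAUCE and known from seed development, was at 0.62 there and between -0.39 and -0.06 elsewhere. For these 3 the transgenic arrays overlapped the other controls, and the median difference between groups was -0.11, -0.04 and -0.09.

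TBL45, from the trichome birefringence-like family that acetylates wall polysaccharides, combined both features. It was at -0.23, -0.12 and 0.35 on the control arrays and at -0.71, -0.85 and -0.85 on the 35S-PaWRKY1 arrays. The groups lay apart, and control replicate 3 was the highest array. JKD, a zinc finger regulator of root tissue patterning, was at -0.31, -0.10 and 0.41 in controls and at -0.28, -0.66 and -0.41 in 35S-PaWRKY1, where replicate 1 lay inside the control range.

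The genes nearest to RR16 mostly shared the step between groups. CSLC04, a xyloglucan backbone synthase gene, was at -0.16, 0.01 and 0.16 in controls and at -0.37, -0.88 and -0.54 in 35S-PaWRKY1, with its lowest value on replicate 2, as RR16 had. SCPL34, a serine carboxypeptidase-like gene, was at -0.14, 0.08 and 0.06 in controls and at -0.94, -0.72 and -0.49 in 35S-PaWRKY1. OCT5, named as an organic cation transporter gene, was at 0.06, 0.18 and -0.23 in controls and at -0.90, -0.58 and -0.30 in 35S-PaWRKY1. The groups lay apart for these 3 genes, against 14.5% of all probe sets, but their choice by likeness to RR16 favours such a step. OCT5 had an r of only 0.32 with ARR15.

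Of the 183 probe sets, 35 were among the 50 highest for both regulators. The 50 highest are a large part of the 183, so some of this overlap comes from the cutoff. BAT1, BZIP61 and GLC, named above for ARR15, were among the 35 too, at ranks 17, 20 and 27 for RR16. The 6 of the 35 that were highest by the lower of the 2 correlations were TBL45, JKD, CSLC04, SCPL34, hemf2 and UGT76C2. The probe set named hemf2 had an r of 0.723 with ARR15 and 0.651 with RR16, and its groups lay apart, at -0.24 to 0.24 in controls and -0.92 to -0.31 in 35S-PaWRKY1. UGT76C2 was the sole gene among the 6 that also stood on the cytokinin list. The other matched cytokinin genes did not reach the range of at least 1 that the search required, so they could not appear. UGT76C2 reached that range through 35S-PaWRKY1 replicate 2, at -0.87, together with control replicate 3, at 0.20. With either of these arrays left out, its range would be below 1.

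**Figure D5:**
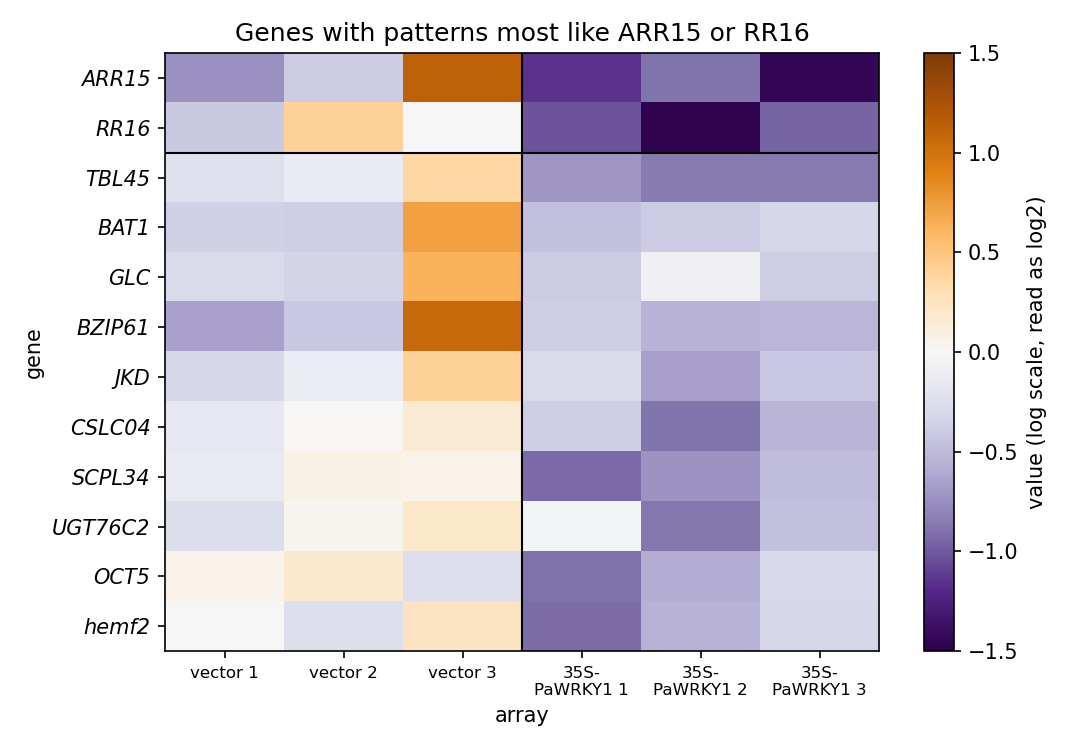
Values on each array of ARR15, RR16 and the 10 genes named for the likeness of their patterns, coloured by the difference from the control mean on a log scale read as log2. BAT1, GLC and BZIP61 are high on vector array 3 alone, whereas CSLC04, SCPL34 and OCT5 are lower on all 3 transgenic arrays than on all 3 vector arrays.

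Shoot and root make different contributions to a whole seedling, so markers of each were read on the same arrays. Of 15 root markers 3 were matched, and their mean value ran from -0.06 to 0.11 over controls and from -0.11 to -0.01 over 35S-PaWRKY1 arrays. XTH26, a cell wall gene of root hairs, was at -0.39 (SE 0.126, n = 3 per group, limma adjusted p 0.505), with groups that lay apart. PYK10, an abundant root beta-glucosidase gene, was at 0.25 (SE 0.176, limma adjusted p 0.774), and EXPA7, a root hair expansin gene, at -0.04 (SE 0.137, limma adjusted p 0.97). With single arrays left out XTH26 ran from -0.52 to -0.30, PYK10 from 0.07 to 0.39 and EXPA7 from -0.11 to 0.09, so EXPA7 had no settled sign. Of 15 shoot markers 8 were matched, and their mean ran from -0.08 to 0.08 over controls and from -0.11 to 0.06 over 35S-PaWRKY1 arrays. PORB, of chlorophyll synthesis, had the largest difference of the 8, at -0.36 (SE 0.233, limma adjusted p 0.753; -0.57 to -0.17 with single arrays left out). SPCH, which starts the stomatal lineage, was at -0.20 (SE 0.163, limma adjusted p 0.811; -0.31 to -0.05), and FMA, the FAMA gene of guard cell formation, at 0.17 (SE 0.126, limma adjusted p 0.787; 0.08 to 0.30). The photosynthesis genes LHCB4.1, PSAE-1, PRK and SBPASE were at 0.09, 0.08, 0.06 and -0.07, and the stem cell gene CLV3 at -0.04, with limma adjusted p of 0.846 or more. The groups lay apart for PSAE-1, which was higher in 35S-PaWRKY1, and overlapped for the other 7. Limma called 0 of the 11 markers, against 0.0308% of all probe sets, and 1, XTH26, had an unadjusted p under 0.05, against 8.01% of all. The groups lay apart for 2 of the 11, against 14.5% of all. The values are centred, so it cannot be read whether a marker was near background, and the part of these markers in the values of ARR15 and RR16 was not tested.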

How the data were processed

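Biotin-labelled cRNA from total RNA was hybridised to Affymetrix arrays, per the labels' protocols. The authors deposited log-scale values, taken here to be log2; MAS5 and RMA are named in the submitters' processing notes without their roles. A check of the file showed that the controls of every probe set average to 0, within 1.27e-06. The sources used here give neither the log base, nor the direction, nor any normalization between arrays. The array medians were -0.0243, 0.00775 and 0.0137 for controls 1 to 3 and -0.0292, -0.0350 and -0.0464 for 35S-PaWRKY1 1 to 3, and no further normalization was applied.

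Of 22810 probe sets, 64 Affymetrix controls were left out. Gene names come from the platform annotation at GEO, possibly outdated, updated by RefSeq's table of assembly TAIR10.1: 13513 probe sets had 1 gene, 503 several and 8730 none given, and 77 of the 13513 had no match in RefSeq. All probe sets were fitted together by limma 3.58.1 (lmFit, then eBayes; R 4.3.3). Tests were two-sided, p-values were adjusted by Benjamini-Hochberg, and an adjusted p under 0.05 counted as a call. Each SE is the moderated one. The fit was run on simulated data with known changes. Its recovery at sizes like those seen here is not reported, so that run does not show how well such differences are found. P-values set each difference against the spread between these arrays, moderated over all probe sets, and 3 arrays per group limit the precision. Figures were drawn with matplotlib 3.10.9.

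The members, gene lists and alternatives were chosen with earlier results of these data known. Genes named are the 2 members, every matched gene of the cytokinin list, the nearest measured neighbours, for each member the 5 most correlated named genes with a range of at least 1, and up to 6 genes among the 50 most correlated with both. All 11 matched markers are named. A planned search for motifs in promoters was not done.

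Across probe sets, arrays with the same number deviated together from their groups, with correlations of 0.314, 0.194 and 0.453 for replicates 1 to 3. Each exceeds 0.1, but control 1 with 35S-PaWRKY1 2, of unlike number, reached 0.171. The labels name no shared batch, so any pairing rests on these correlations; the values printed come from the fit without a block unless the block is named. Alternatives were the replicate block, quantile normalization, median centring, array weights, robust eBayes, a threshold of 0.01 and arrays left out.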

Additional observations from a re-analysis of the deposited data

How the results depend on the processing

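Since the groups do not overlap for ARR15 and RR16, leaving out or weighting arrays cannot turn the sign of their differences, and only the sizes are informative. Single arrays left out gave -1.53 to -0.60 for ARR15 and -1.35 to -0.95 for RR16, and quantile normalization gave -1.07 and -1.13. With the replicate number as a block the differences were the same, -1.16 and -1.15, since the arrays are balanced. The correlation of the 2 genes, 0.628, was 0.714 by Spearman's rank and 0.841 without the 2 arrays farthest from the ARR15 median. With single arrays left out it was 0.587 to 0.767. These values all keep the step between groups. The correlation turned to -0.00453 in deviations from each group's mean, which removes that step by construction. Over the whole array 7 probe sets were called, and 6 with the replicate block. Array weights gave 11, robust eBayes 1, a threshold of 0.01 1, single arrays left out 0 to 1 (0 without 35S-PaWRKY1 replicate 2, with 1062 at an unadjusted p under 0.05), quantile normalization 0 (1022 unadjusted) and leaving out both replicate 3 arrays 0 (1914 unadjusted). The cause was not tested. Of the 5 other cytokinin genes, limma called 0 in every setting run, the block included. At an unadjusted p under 0.05 there was 1, UGT76C2, with array weights (-0.56) and without 35S-PaWRKY1 replicate 1 (-0.67), and 0 in the other settings fitted. The number of arrays limits all of these values, and without expression levels no filter on dim probe sets could be applied.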
